A study of Mus musculus with 2 samples.

Results

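The 86 genes described here encode the proteins of the cytosolic ribosome. They were taken by gene symbol from the 32285 genes of the deposited tables: every Rps or Rpl symbol followed by a digit, together with Rplp0, Rplp1, Rplp2 and Rpsa, without pseudogenes and without the S6 kinases. The list holds 33 genes of the small subunit, 51 of the large subunit, and Rps19bp1 and Rpl7l1, which carry such a symbol although their products are not proteins of the mature ribosome. Of the 86 genes, 84 had at least 200 unique molecular identifiers (UMIs, each standing for 1 captured mRNA molecule) over both libraries, and Rpl3l and Rpl10l had fewer.

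The ribosome translates mRNA into protein, and each subunit carries 1 copy of nearly every one of its proteins, so these genes are usually expressed together at high and similar levels. Their mRNAs start with a cytosine and a run of pyrimidines, the 5′ terminal oligopyrimidine (TOP) motif, through which mTOR signaling sets how much of them is translated. In the gastrulating mouse embryo, where cells divide fast, they are among the most abundant transcripts. Some of the proteins also have roles of their own: Rpl38 is needed for correct patterning of the axial skeleton, and Rpl5 and Rpl11 bind the p53 regulator MDM2.

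Single-cell RNA-seq was performed on mouse embryos at embryonic day 7, with 1 library of 4 pooled control embryos and 1 library of 3 pooled Yap1 cKO embryos. YAP1 is a transcriptional coactivator of the Hippo pathway. The cKO embryos were Sox2cre:Yapflox/flox, the methods give the controls as Sox2cre:Yapflox/+ in one place and as Cre-negative floxed embryos in another, and the labels call the controls WT. Sox2-Cre recombines floxed alleles in the epiblast and its descendants, whereas visceral endoderm and extraembryonic ectoderm are not its targets. The paper cautions that extraembryonic tissues of its floxed embryos, control and cKO, likely carried 1 deleted Yap1 allele, inherited from the father. With 1 library per genotype, genotype cannot be told apart from library, from the embryos in the pool or from their sex, and no test between genotypes was made.

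The control library held 1829 barcodes and the Yap1 cKO library 1897, of which 791 and 864 had at least 5000 detected genes, with a median of 75715 and 80922 UMIs. Marker genes assigned 788 and 859 of these cells to 9 populations, and 3 and 5 cells to none. Most marker lists were highest in their own population in both libraries. The exceptions were the visceral endoderm list, which in the Yap1 cKO library was highest in the anterior visceral endoderm, and the primitive streak list, which there was highest in nascent mesoderm. Yap1 itself was at 29.3 CPM (UMIs of the gene per 1000000 UMIs of the cells) in control epiblast and 1.15 in Yap1 cKO epiblast. That is a ratio of 0.0394 (95% interval 0.0268 to 0.0562). The ratio was 0.740 (0.628 to 0.871) in extraembryonic ectoderm and 0.858 (0.723 to 1.02) in visceral endoderm. It was 0.344 (0.196 to 0.590) in anterior visceral endoderm, from 39 and 23 UMIs. The labels give female embryos, yet 51.7% of control cells and 15.5% of Yap1 cKO cells had at least 2 Y-linked UMIs and no Xist UMI (Y-bearing). At least 2 Xist UMIs and no Y-linked UMI (Xist-bearing) were found in 42.1% and 77.4%, so the 2 pools differed in sex as well as in genotype.

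Transcription start regions are printed for 6 genes on which the results below turn: Rps27, Rps21, Rpl38 and Rps28, which were lower in the Yap1 cKO library, and Rps2 and Rpsa, which were higher there. Each runs 5′ to 3′ on the strand of the gene, from 10 bases before the annotated RefSeq start to 20 bases from it, in GRCm38.p6, with the longest pyrimidine run of the window in capitals.
Rps27 (chr3:90213629-90213658, minus strand): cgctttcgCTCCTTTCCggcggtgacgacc
Rps21 (chr2:180257369-180257398, plus strand): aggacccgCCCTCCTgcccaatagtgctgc
Rpl38 (chr11:114668570-114668599, plus strand): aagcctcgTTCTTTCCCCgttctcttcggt
Rps28 (chr17:33824543-33824572, minus strand): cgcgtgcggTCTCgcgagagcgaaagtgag
Rps2 (chr17:24720053-24720082, plus strand): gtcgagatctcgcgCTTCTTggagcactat
Rpsa (chr9:120127756-120127785, plus strand): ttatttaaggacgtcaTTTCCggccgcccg
The runs were 9 bases long in Rps27, 10 in Rpl38, 7 in Rps21, 4 in Rps28, 6 in Rps2 and 5 in Rpsa. In Rps2 and Rpsa the run began after the annotated start, and in the other genes it spanned the start. These 6 genes were picked after their values were seen, and a link of run length with the direction of the shift was not tested. A C followed by at least 4 pyrimidines, starting between 5 bases before and 15 bases after the start, was found in 49.4% of 81 promoters of 69 members and in 24.3% of all 32851 promoters in the table. Other motifs were also more frequent in member promoters, counted on both strands from 250 bases before to 50 after the start: CCGGAAG, an ETS factor motif, in 33.3% against 8.86%, and ATGGCGG, a YY1 motif, in 17.3% against 4.05%. The TATA box TATAAA was at 8.64% against 8.32%. A match describes these letters and is not a binding site.

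Ribosomal protein genes took up 22.6% of all UMIs in the control cells and 22.0% in the Yap1 cKO cells. They made up 64 of the 100 genes with the most UMIs, and 77 of the 86 were above 1000 CPM over all gated cells, with a median of 2772 CPM. Because the libraries count the 3′ ends of molecules, these levels were not divided by length. The highest member over both libraries together was Rps2, a small subunit protein near the mRNA entry, at 5904 CPM (5885 to 5923) in control cells and 6836 (6819 to 6854) in Yap1 cKO cells. Rpl41, the smallest protein of the ribosome, was at 6382 and 6090 CPM, above Rps2 in the control library and below it in the Yap1 cKO library. Rplp0, the base of the ribosomal stalk, was at 5282 and 5507 CPM, followed by Rps20 at 5008 and 4970 and Rpl13 at 4797 and 4849.

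The 5 lowest members with at least 200 UMIs were of several kinds. Rpl23a, a large subunit protein at the exit tunnel, was at 705 and 680 CPM. Of the genes whose products are not proteins of the mature ribosome, Rpl7l1 was at 205 and 190 CPM, and Rps19bp1, a partner of Rps19, at 118 and 115. Rps27rt, a copy of Rps27 on another chromosome, was at 21.4 and 17.8 CPM. Rpl39l, a paralog known from the testis, was at 3.67 and 5.69 CPM. Many members have processed pseudogenes, and reads that match a gene and its copies equally well may be lost or split, so the level of a single member is less certain than its difference between populations.

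The share of UMIs from these genes was lower in visceral endoderm than in the 7 populations outside this layer, in both libraries. In the epiblast it was 23.3% in both libraries, and in extraembryonic ectoderm 23.6% in control cells and 24.0% in Yap1 cKO cells. Primitive streak, nascent mesoderm, Foxf1 and Hand1 mesoderm, blood and endothelial progenitors and node cells lay between 22.2% and 23.3%. In visceral endoderm, by contrast, the share was 18.03% and 17.8%, and in its anterior part 18.4% and 17.4%. The widest 95% binomial interval among these shares, that of control anterior visceral endoderm, ran from 18.3% to 18.4%. Among single cells of the visceral endoderm, the share ranged from 9.45% to 24.98% in the control library and from 3.79% to 25.1% in the Yap1 cKO library, around medians of 17.7% and 17.6%, whereas the epiblast medians were 23.3% and 22.8%.

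Several measures moved with the lower share of the visceral endoderm. Its 10 marker genes, which include the secreted proteins Ttr, Afp and Apoa1, took up 2.92% and 2.69% of its UMIs. Without these 10 genes the share of ribosomal protein genes was 18.6% and 18.3%, beside 22.2% to 24.0% in the 7 populations outside this layer. Other genes that are high in visceral endoderm were not taken out. Mitochondrial transcripts were at 1.505% and 1.69% in visceral endoderm against 0.80% and 0.76% in the epiblast. Depth was similar in the control library, with a median of 73220 UMIs per cell in visceral endoderm and 73986 in the epiblast, and lower than the epiblast in the Yap1 cKO library, 75371 against 85879. The 5 parietal endoderm markers were also highest in visceral endoderm, at 663 and 660 CPM in sum. The part of transcripts high in visceral endoderm, mitochondrial transcripts, depth and parietal endoderm RNA in the result was not tested.

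**Figure D1:**
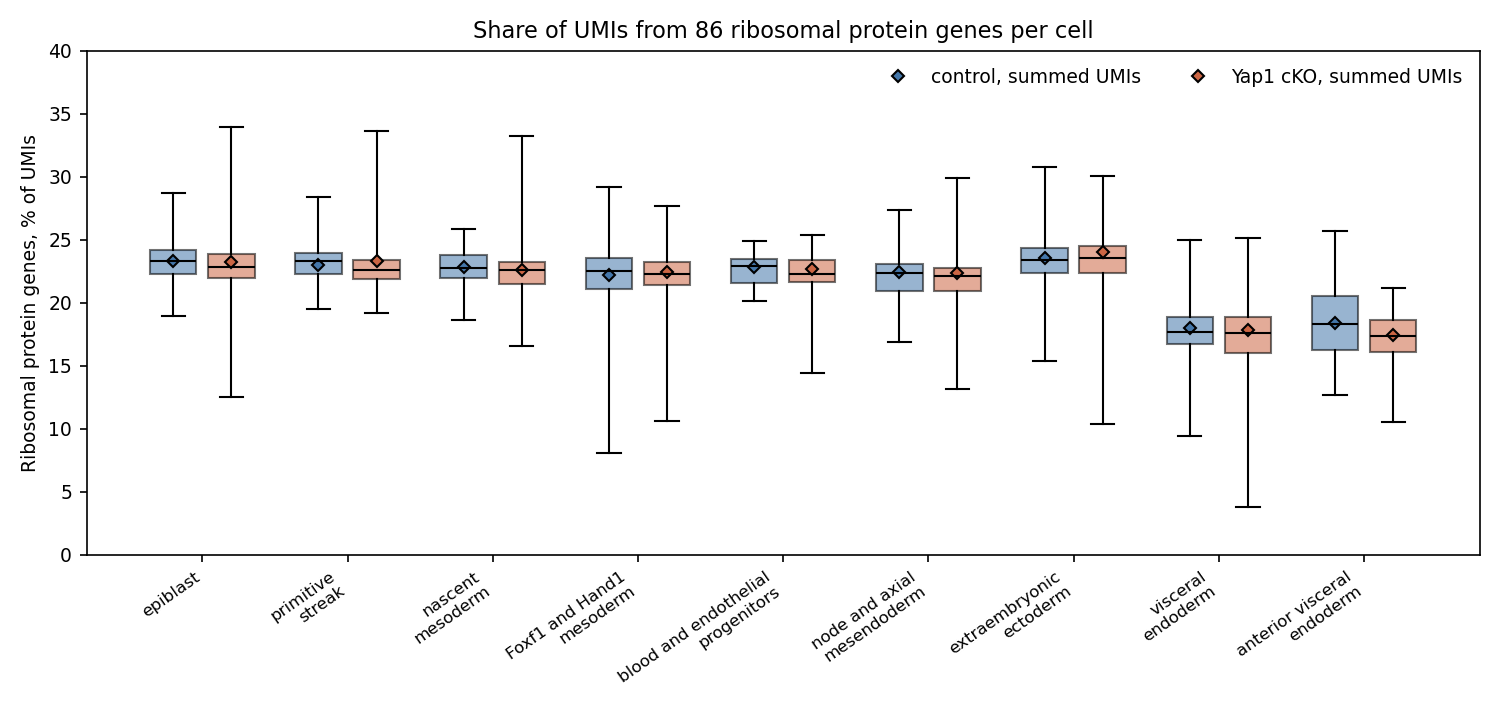
Percent of UMIs from the 86 ribosomal protein genes in single cells (y axis) of 9 populations (x axis), control in blue and Yap1 cKO in orange; boxes give the quartiles with the median as a line, whiskers the lowest and highest cell, and diamonds the share of the summed UMIs. The diamonds of visceral endoderm and anterior visceral endoderm lie between 17.4% and 18.4%, and those of the other 7 populations between 22.2% and 24.0%.

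The 2 libraries were then compared within each population, to see which members shifted with the library in all of them. UMIs were summed per population, and a member was counted when its ratio of Yap1 cKO to control CPM was above 1.2 or below its inverse. In the epiblast, where Yap1 was deleted, 1 of 83 members was higher (Rps2) and 7 were lower (Rps21, Rps26, Rps27, Rps28, Rps29, Rpl38 and Rpl39). Over all 10136 genes with at least 200 UMIs, 5.76% were higher and 11.6% lower past the same fold. Members made up 64 of the 100 genes with the most UMIs, so these shares, here and in the other populations, are not matched for depth. Log2 ratios had a standard deviation of 0.148 over the members and 0.224 over all genes. The median log2 ratio of the members was 0.00 in the epiblast, beside −0.05 for all genes.

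In the other 8 populations, between 3 and 11 members were lower and between 0 and 2 were higher. Past the same fold were 10.5% to 16.6% of all genes on the lower side and 4.98% to 14.4% on the higher side. Primitive streak had 6 members lower (15% of all genes) and 1 higher (8.35%), nascent mesoderm 7 (10.5%) and 0 (7.01%), and Foxf1 and Hand1 mesoderm 7 (12%) and 1 (8.49%), the higher one being Rps2. Node cells had 8 lower (16.6%) and 0 higher (10.1%), and anterior visceral endoderm 7 (12.1%) and 0 (14.4%). The fewest were in visceral endoderm, with Rps21, Rps26 and Rps27 lower out of 84 (11.1% of all genes lower) and Rps2 and Rpl39l higher (9.06%). Blood and endothelial progenitors had the most, with 11 lower of 82 (13.3% of all genes), and Rps2 and Rps4x higher (13.2%). In extraembryonic ectoderm, a tissue that Sox2-Cre does not target, 8 of 83 members were lower (12.8%), and 1, Rps4x, was higher (4.98%). Median log2 ratios of the members lay between −0.07 in anterior visceral endoderm and 0.04 in extraembryonic ectoderm.

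Rps21 and Rps27 were past the fold in all 9 populations, both lower in the Yap1 cKO library. That is 2 of the 83 members measured in every population, beside 0.109% of 8247 genes lower everywhere. No member was higher past the fold everywhere (0.0243% of all genes). The count for each gene rests on 2 libraries, and the 9 populations share them.

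Rps27, a small subunit protein with a zinc finger, was at 2108 CPM (2089 to 2127) in control epiblast and 1561 (1546 to 1576) in Yap1 cKO epiblast. It was at 2071 and 1599 CPM in extraembryonic ectoderm and at 1587 and 1241 in visceral endoderm. Among the remaining 6 populations, the control library held 1673 to 2029 CPM and the Yap1 cKO library 1298 to 1603, and in no population did the 95% counting intervals of the libraries overlap. The ratio ran from 0.717 in blood and endothelial progenitors to 0.790 in primitive streak.

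Rps21, also a small subunit protein, was at 2519 CPM (2498 to 2540) in control epiblast and 1810 (1794 to 1826) in Yap1 cKO epiblast. In extraembryonic ectoderm, its highest population, it was at 3002 and 2234 CPM, and in visceral endoderm at 2358 and 1884. The ratio ran from 0.712 in blood and endothelial progenitors to 0.831 in anterior visceral endoderm, the population with the fewest cells, 19 and 23. In the epiblast, where the Yap1 ratio was 0.0394, the ratio of Rps21 was 0.719, and in extraembryonic ectoderm, with a Yap1 ratio of 0.740, it was 0.744. The relation of the Rps21 ratio to that of Yap1 was not tested.

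Rpl38, Rps26, Rps28 and Rps29 were lower in every population without passing the fold in all of them. Rpl38 was at 2769 and 2173 CPM in the epiblast, with ratios of 0.768 to 0.840 over the 9 populations. Rps26, a small subunit protein near the mRNA exit, was at 4074 and 3222 CPM in the epiblast, with ratios of 0.739 to 0.857. Rps28 and Rps29, both small subunit proteins, had ratios of 0.794 to 0.862 and 0.770 to 0.893. The counting interval of the ratio was below 1 in all 9 populations for 15 members, among them these 4, Rps21, Rps27, Rpl35, Rpl36, Rpl37, Rpl37a and Rpl39. The same held for 0.352% of the 8247 genes with at least 20 UMIs in each population, and for 5.42% of the 369 genes with at least 1000 UMIs in each. These 369 genes include 80 of the members, and the 20 of them that met the rule include all 15. The highest ratio among the 15 members was 0.974, for Rpl37a in visceral endoderm.

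Rps2 was the single member whose interval was above 1 in all 9 populations, as for 0.158% of the 8247 genes and 2.17% of the 369. It was at 6103 CPM (6071 to 6136) in control epiblast and 7348 (7316 to 7380) in Yap1 cKO epiblast. In visceral endoderm, where its level was lowest, it was at 4164 and 5178 CPM. The ratio ran from 1.16 to 1.24. Rpsa, a small subunit protein that is also known as a laminin receptor, was at 3542 and 4139 CPM in the epiblast, and its ratios ran from 1.02 to 1.18.

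In the epiblast, most other members known from development or disease stayed near a ratio of 1. Rpl10a had 2300 and 2425 CPM there, Rpl5 1398 and 1442, and Rps6, the target of the S6 kinases, 1421 and 1447. Over the populations, their ratios ran from 0.943 to 1.11 for Rpl10a, 0.897 to 1.10 for Rpl5 and 0.919 to 1.08 for Rps6. Rps19, which is mutated in Diamond-Blackfan anaemia, was at 3025 and 3139 CPM in the epiblast, with ratios of 0.993 to 1.07 over the populations. Rpl11 was somewhat higher in the Yap1 cKO library, at 3726 and 4153 CPM in the epiblast, with ratios of 1.03 to 1.16. Over all members, 35 of 83 had intervals above 1 in one population and below 1 in another, beside 21.5% of the 8247 genes. Among genes with at least 1000 UMIs in each population the shares were close, at 43.75% of 80 members and 43.9% of 369 genes, which include these members. With more than 1.2-fold between the highest and the lowest ratio, they numbered 11 of 83, beside 20.8% of the 8247 and 32% of the 369 genes.

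**Figure D2:**
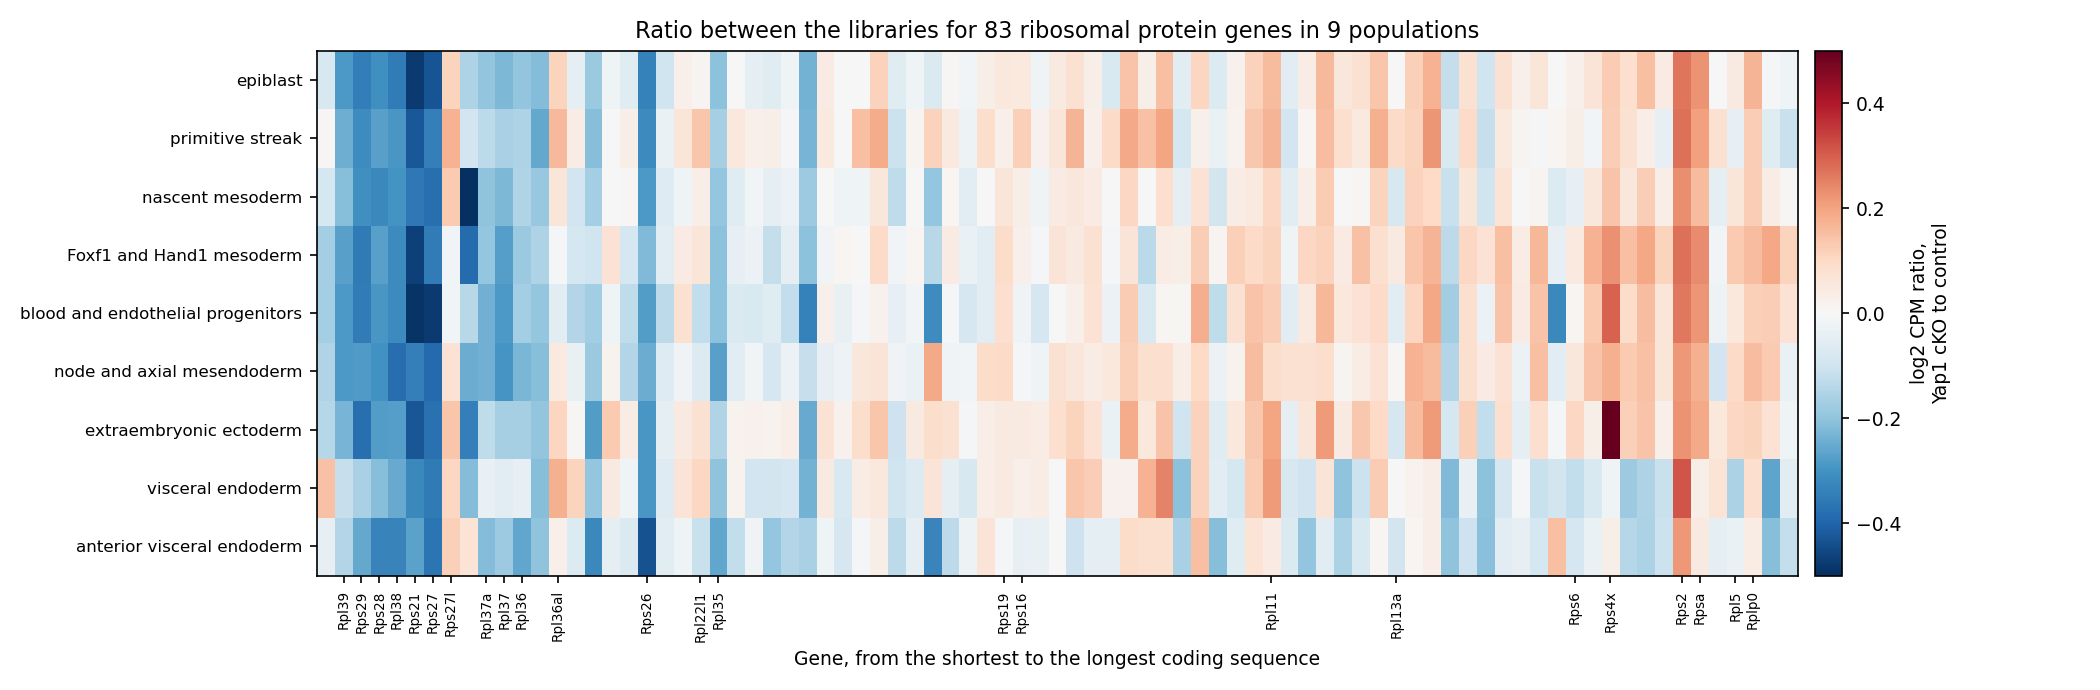
Log2 ratio of CPM between the Yap1 cKO and control libraries (colour, red higher and blue lower in Yap1 cKO, colours limited to ±0.5) for 83 ribosomal protein genes (columns, ordered by coding length from short to long, some of them labelled) in 9 populations (rows). Blue columns gather among the short genes at the left, with Rps21 and Rps27 at a ratio of at most 0.831 in every row, while Rps2 at the right is red in every row and Rps4x stands out in extraembryonic ectoderm.

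The ratios were also taken within cells of 1 sex. Ribosomal protein genes made up 23.1% of control and 24.4% of Yap1 cKO UMIs in Y-bearing epiblast cells, and 23.6% and 22.8% in Xist-bearing ones. Within Xist-bearing cells alone, Rps27 had ratios of 0.709 to 0.842 and Rps21 of 0.699 to 0.889 over the 9 populations, so that neither was past the fold in all of them and no member was. Within Y-bearing cells, which 5 populations held in both libraries in sufficient number, both were past the fold in all 5, at 0.683 to 0.830 and 0.615 to 0.759. The Yap1 cKO library held as few as 12 such cells, in visceral endoderm and in blood and endothelial progenitors. For neither sex class is the share of all genes past the fold in every population given, so these counts have none beside them. The epiblast count of members higher in Yap1 cKO was 9 within Y-bearing cells and 0 within Xist-bearing cells, whereas the count of lower members was 6 and 9. Of all genes, 8.42% were higher and 32% lower in Y-bearing epiblast cells, and 7.96% and 8.18% in Xist-bearing ones. At a fold of 1.5, for which the share of all genes is not given, no member was past it in any direction in the epiblast.

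Most members that were lower in the Yap1 cKO library had a short coding sequence, a property that the selection did not use. The 7 lower in the epiblast had 153 to 345 coding bases, where the median of all 86 was 453. In the epiblast, the 10 members with a coding length under 300 bases had a median log2 ratio of −0.30, those of 400 to 600 bases 0.03 (n = 31), and those of 800 to 1000 bases 0.11 (n = 6). Spearman's rho between coding length and log2 ratio was 0.61 over 82 members in the epiblast, 0.52 in extraembryonic ectoderm and 0.05 in visceral endoderm. The genes of the rest of the transcriptome ran the other way: rho was −0.42 over 5672 genes in the epiblast, and the 167 genes with a coding length under 300 bases had a median log2 ratio of 0.08. Genes of 1 library share its depth and capture, so these values describe the pair of libraries.

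Coding length did not order all of the short members. Rps27l has the same coding length as Rps27, 252 bases, and was at 1137 CPM in control and 1227 in Yap1 cKO epiblast, with a ratio of 1.08 where that of Rps27 was 0.740. Rpl41, with 75 coding bases, had ratios from 0.888 in Foxf1 and Hand1 mesoderm to 1.11 in visceral endoderm. Rpl39, with 153 coding bases, was at 3593 and 2941 CPM in the epiblast. The whole annotated transcripts had 345 bases for Rps27, 499 for Rps27l, 582 for Rpl41 and 612 for Rpl39. The relation of transcript length to the ratio was not tested.

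**Figure D3:**
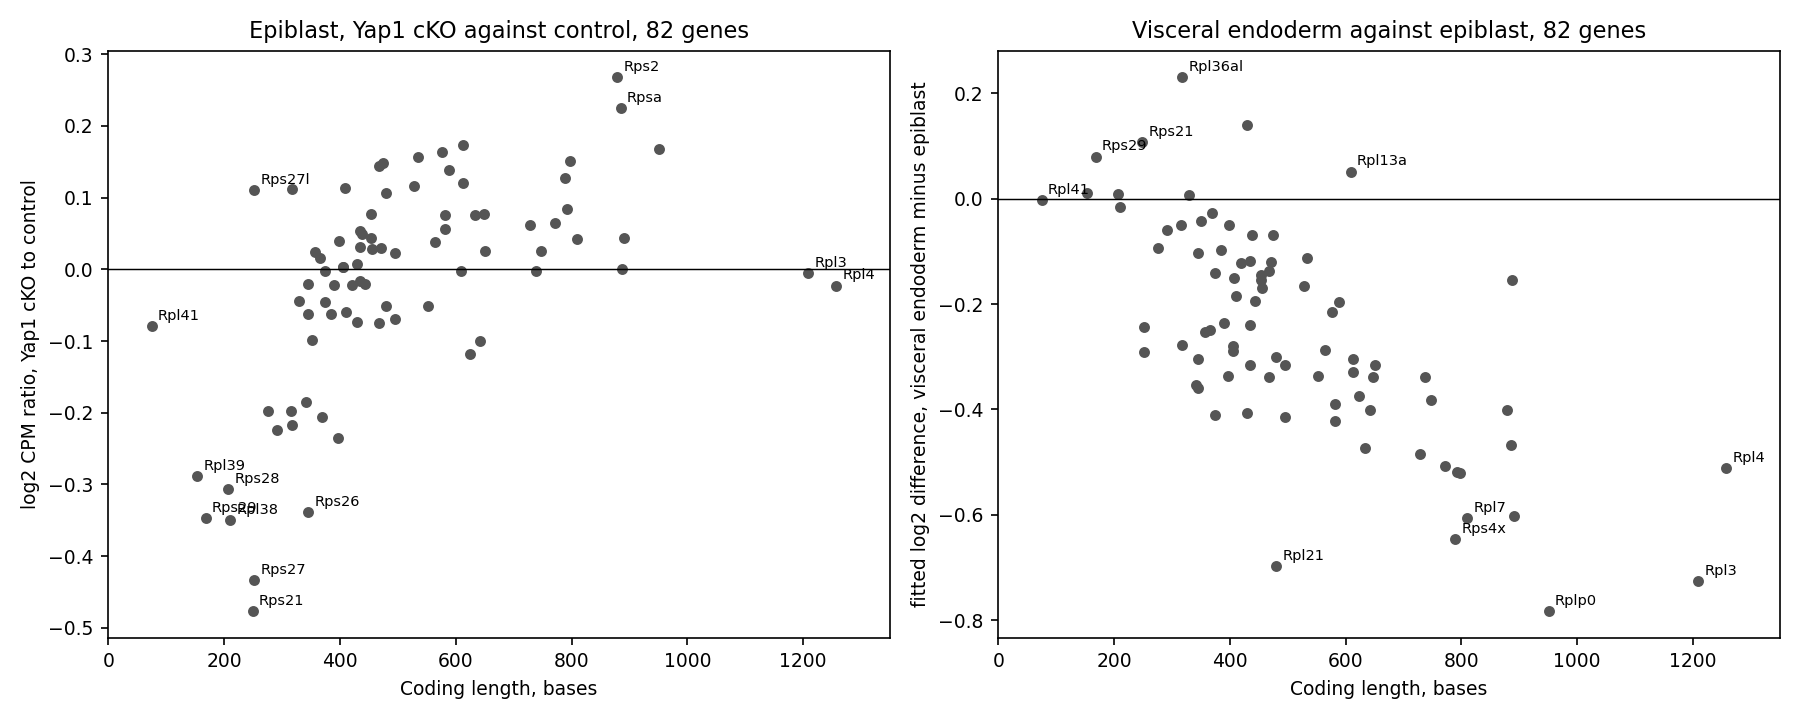
Coding length in bases (x axis) of 82 ribosomal protein genes against the log2 CPM ratio of Yap1 cKO to control in the epiblast (left) and the fitted log2 difference of visceral endoderm minus epiblast (right); each point is 1 gene. On the left the lowest point is Rps21, of 249 bases, at −0.48, and on the right Rplp0, of 951 bases, at −0.78.

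A difference between lineages can be set against how far it varies between the 2 libraries, since every population was measured in both. The summed UMIs of the 18 pseudobulks were fitted with edgeR's quasi-likelihood test with library as a covariate, over 12790 genes, and calls used Benjamini-Hochberg adjusted p under 0.05. The library term takes up a shift common to all populations of a library. The remaining spread is how far population differences vary between the libraries, pooled over all populations. Because the libraries differ in genotype, this spread holds genotype as well as library, and populations of 1 library come from the same embryos.

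In visceral endoderm against epiblast, 58 of 84 members were lower, 2 were higher and 24 did not pass. Genes at large were called in both directions alike, 35.1% lower and 36.2% higher. The median log2 difference of the members was −0.25, beside −0.01 for all genes. On the plain CPM scale the median was −0.37 in control cells and −0.39 in Yap1 cKO cells, beside −0.14 and −0.12 for all genes. Of the 58, 51 were also past 1.2-fold in CPM within each library. The share of all genes that met both rules is not given here, and on this scale the median of all genes was lower too.

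Rplp0 fell most among the lower members. It was at 5559 CPM in control epiblast and 3050.4 in control visceral endoderm, and at 6246 and 3231 in the Yap1 cKO library, a fitted log2 difference of −0.78 ± 0.04 (SE; edgeR adjusted p = 2.41e-10). Rpl3, a core protein near the peptidyl transferase center, was at 3148 and 1902 CPM in control cells and at 3136 and 1585 in Yap1 cKO cells (−0.73 ± 0.08; edgeR adjusted p = 1.22e-06). In both libraries each gene was lower in visceral endoderm, and the 2 libraries' values of one tissue did not overlap those of the other.

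Rpl21, Rps4x and Rpl7 came next, with log2 differences of −0.70, −0.65 and −0.61. Of the genes with roles outside the ribosome, Rpl5 fell by 0.60 on the log2 scale, Rpsa by 0.47, Rps6 by 0.38, Rpl10a by 0.34 and Rps19 by 0.24. Rpl38 and Rpl11 did not pass, at −0.02 and −0.11 (edgeR adjusted p = 0.798 and 0.0722). Among the genes that differed between the libraries, Rps27 fell by 0.24, while Rps21 was at 0.11 (edgeR adjusted p = 0.127).

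The 2 members that rose in visceral endoderm are both paralogs of X-linked genes. Rpl36al rose by 0.23 ± 0.07 on the log2 scale (edgeR adjusted p = 0.00752), from 1218 to 1278 CPM in control cells and from 1317 to 1446 in Yap1 cKO cells. Rpl39l rose by 1.94 ± 0.46 (edgeR adjusted p = 0.00139), from 3.44 to 10.1 CPM and from 4.18 to 16.1. Its UMIs were few and uneven: 60 in 10 of 77 control cells of the visceral endoderm, with 14 in 1 cell, and 267 in 52 of 201 Yap1 cKO cells, with 29 in 1 cell. In the epiblast, 42 of 270 and 53 of 278 cells had a UMI, at median depths of 73986 and 85879, against 73220 and 75371 in visceral endoderm. In control extraembryonic ectoderm, 40 of its 49 UMIs came from 1 cell.

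The fall in visceral endoderm also moved with coding length. Members under 300 coding bases had a median log2 difference of −0.01 (n = 10), those of 400 to 600 bases −0.20 (n = 31), and those of 800 to 1000 bases −0.54 (n = 6). Other genes with at least 10000 UMIs also fell over these lengths, with medians of 0.39 (n = 130), 0.21 (n = 354) and −0.15 (n = 229). From 1000 to 2000 bases, with 2 members and 655 other genes, the medians were −0.62 and −0.17. Above 2000 bases the other genes were at −0.09 (n = 506). Spearman's rho was −0.68 over 82 members, beside −0.14 over 2333 other genes, many of them longer than the members. Visceral endoderm had mitochondrial shares of 1.505% and 1.69%, and the part of RNA quality in this pattern was not tested.

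In extraembryonic ectoderm against epiblast, 41 of 84 members were higher, none was lower and 43 did not pass, where 32.2% of all genes were higher and 29.4% lower. At an unadjusted p under 0.05, 49 were higher and 0 lower. The differences were small: the median was 0.14 on the scale of the fit, beside 0.03 for all genes. On the CPM scale it was 0.02 and 0.03 in the 2 libraries, beside −0.08 and −0.09 for all genes, so the rise is relative to other genes. With DESeq2 size factors in place of TMM, 25 members were higher, and without the library term 22. The share of all genes is given for the reported fit alone. The counts of 49, 25 and 22 thus have no share beside them.

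Rps16 and Rpl13a were called and past 1.2-fold in both libraries, a rule for which the share of all genes is not given here. The first, a small subunit protein at the P site, was at 3266 and 4151 CPM in control cells and at 3378 and 4281 in Yap1 cKO cells (0.46 ± 0.05; edgeR adjusted p = 1.38e-06). The second, known for a role in translational control outside the ribosome, was at 707 and 906 CPM and at 706 and 855 (0.43 ± 0.06; edgeR adjusted p = 2.13e-05). Rps21 rose by 0.39, Rpl36al by 0.38, Rpsa by 0.37 and Rps19 by 0.19, and Rpl7l1 rose by 0.36. Rpl5, Rpl11, Rpl10a and Rpl38 did not pass, with log2 differences of 0.05 to 0.09.

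Nascent mesoderm was compared with the epiblast from which it arises. No member passed in either direction with edgeR, where 12.1% of all genes were higher and 14.2% lower. At an unadjusted p under 0.05, 0 members were higher and 2 lower, and DESeq2's Wald test called 0 higher and 3 lower. The median log2 difference was −0.05, beside 0.00 for all genes, and 78 of the 84 members lay below 0 and 6 above. On the CPM scale the median was −0.03 in control cells and −0.04 in Yap1 cKO cells, beside 0.01 and 0.02 for all genes. Rps6 was at 1421 and 1438 CPM in control cells and at 1447 and 1399 in Yap1 cKO cells, and Rplp0 at 5559 and 5633 and at 6246 and 6138.

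**Figure D4:**
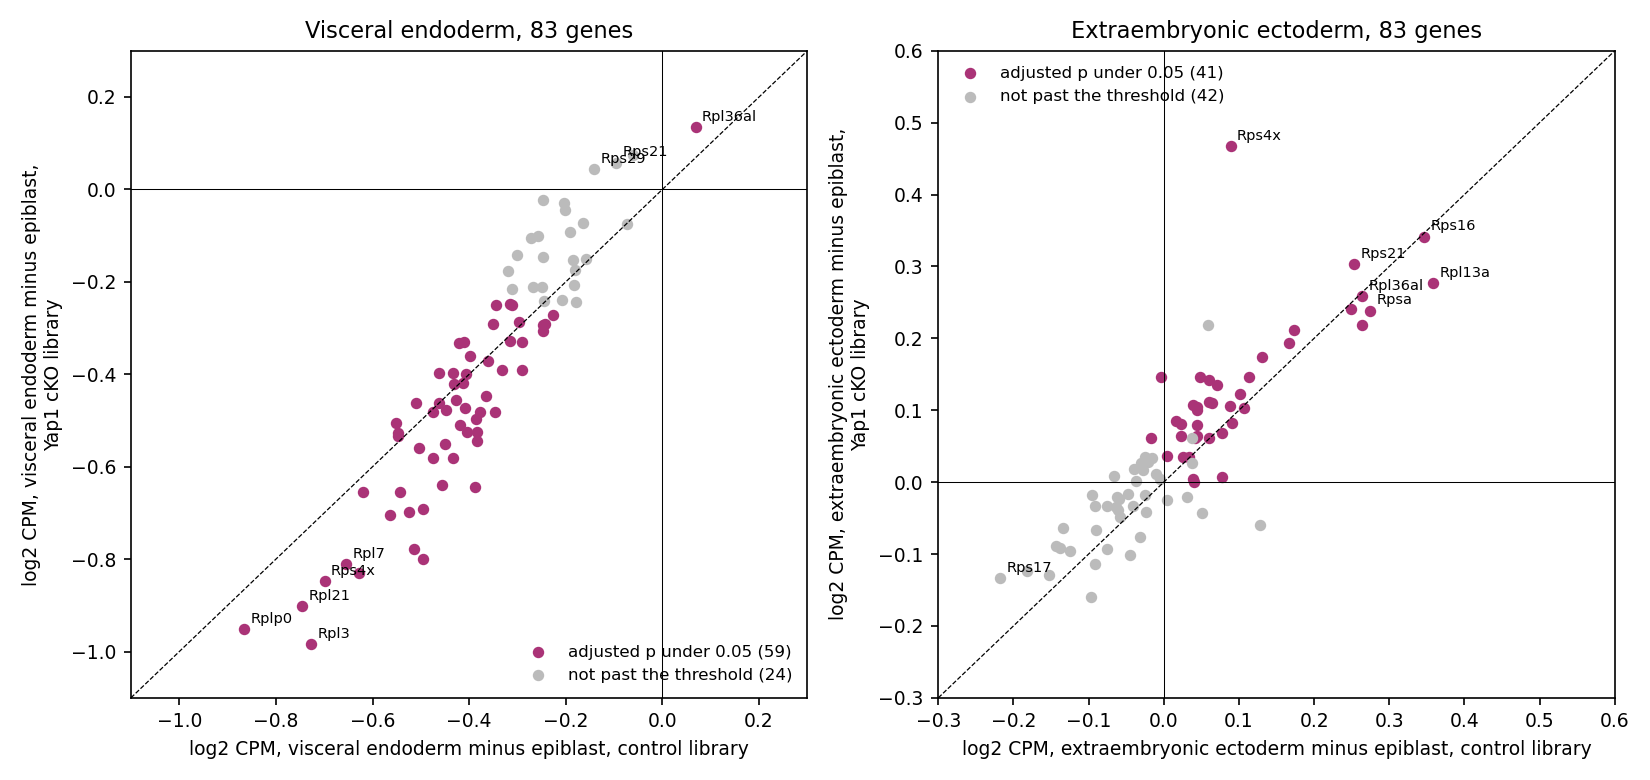
Log2 CPM difference from the epiblast in the control library (x axis) and in the Yap1 cKO library (y axis) for 83 ribosomal protein genes (Rpl39l left out), visceral endoderm on the left and extraembryonic ectoderm on the right; purple points passed edgeR's test at an adjusted p under 0.05, grey points did not, and the dashed line marks equal values. On the left 59 genes are purple and all but Rpl36al lie below 0 in both libraries, and on the right 41 are purple, with Rps16 and Rpl13a among the farthest along the line and Rps4x well above it.

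Rps4x, an X-linked gene of the small subunit, had the widest range of ratios after Rps27rt, a gene with few UMIs, among the 83 members with at least 20 UMIs in every population. In extraembryonic ectoderm it was at 3696 CPM in control cells and 5248 in Yap1 cKO cells, a ratio of 1.42, whereas the ratio was 0.985 in visceral endoderm. The cells of this tissue were split by sex. Y-bearing cells were at 3094 CPM (3061 to 3128; 107 cells) in the control and 3139 (3069 to 3210; 19 cells) in the Yap1 cKO library. Xist-bearing cells were at 5324 CPM (5257 to 5392; 50 cells) and 5844 (5793 to 5896; 73 cells). The ratio between libraries was thus 1.01 within Y-bearing and 1.10 within Xist-bearing cells. In blood and endothelial progenitors, where Rps4x was also past the fold, it was 1.27 (1.22 to 1.32) within Y-bearing cells, 15 and 12 in number, and 1.19 (1.14 to 1.23) within Xist-bearing cells, 15 and 20 in number.

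Within each library, Xist-bearing cells of the extraembryonic ectoderm held 1.72 times (control, 1.69 to 1.75) and 1.86 times (Yap1 cKO, 1.82 to 1.91) the Rps4x level of Y-bearing cells. Over single cells, the medians were 3063 and 5304 CPM in control cells and 3051 and 5548 in Yap1 cKO cells, and the quartiles of the 2 kinds of cell did not overlap. The 78 autosomal members with enough UMIs had ratios of 0.874 to 1.22 in control cells and 0.783 to 1.41 in Yap1 cKO cells. In the epiblast, the Rps4x ratio of Xist-bearing to Y-bearing cells was 1.003 and 0.94, and in visceral endoderm 1.06 and 1.04. Cells of 1 kind come from few embryos, and sex cannot be told apart from embryo here. The call of Rps4x in the lineage fit (0.40 in extraembryonic ectoderm) mixes these cells.

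The other 3 X-linked members did not show this pattern. In extraembryonic ectoderm, the ratio of Xist-bearing to Y-bearing cells was 0.89 and 0.90 for Rpl39, 1.06 and 1.14 for Rpl10, and 0.998 and 0.963 for Rpl36a. In the epiblast, Rpl39 had 0.98 and 0.85, Rpl10 1.05 and 1.14, and Rpl36a 0.97 and 0.93. All of these lie within the range of the autosomal members of the same cells.

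**Figure D5:**
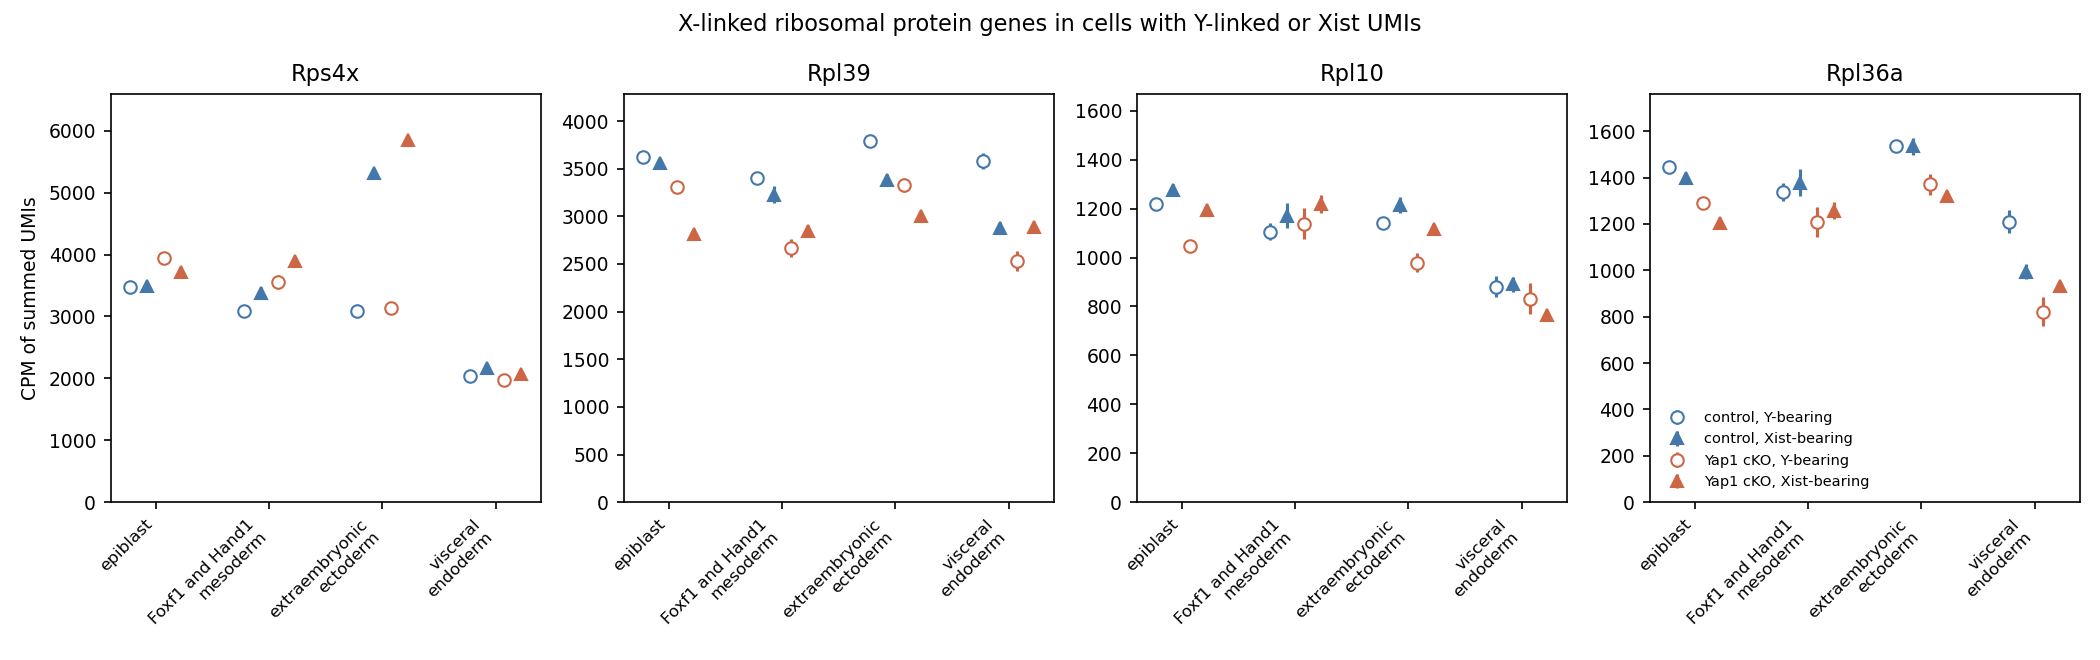
CPM of summed UMIs (y axes, each starting at 0) of the 4 X-linked ribosomal protein genes in Y-bearing cells (open circles) and Xist-bearing cells (filled triangles) of the control (blue) and Yap1 cKO (orange) libraries in 4 populations; bars are 95% Poisson intervals of counting. In extraembryonic ectoderm the triangles of Rps4x lie at 5324 and 5844 and the circles at 3094 and 3139, while the other genes show no such gap.

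Several members have a paralog, and the share of each within its pair does not depend on the scaling. Rps27l made up 33.2% to 37.9% of the Rps27 and Rps27l UMIs in the 9 control populations and 41.1% to 45.4% in the Yap1 cKO populations, so that the ranges did not overlap. In the epiblast it was 35.04% (34.7 to 35.4) and 44.0% (43.7 to 44.4). The CPM ratio of Rps27l itself lay between 0.990 and 1.13, where that of Rps27 was at most 0.790. Rpl36al held 42.2% to 54.3% of its pair with the X-linked Rpl36a in control cells and 46.7% to 60.9% in Yap1 cKO cells, lowest in node cells and highest in visceral endoderm in both. Rpl22 and Rpl22l1, whose proteins can replace each other, were close to equal, with Rpl22l1 at 46.2% to 52.6% and 47.6% to 52.9%.

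The remaining paralogs were minor. Rpl7l1 made up 8.77% to 12.3% of the pair with Rpl7 in control cells and 8.25% to 11.04% in Yap1 cKO cells, and Rpl39l at most 0.557% of the pair with Rpl39. Rpl3l, a paralog of striated muscle, had 16 and 18 UMIs in all. Rpl10l, a retrocopy used in the male germline, had 59 UMIs in 44 of 178 control cells of the extraembryonic ectoderm and 23 in 17 of 103 Yap1 cKO cells. In the epiblast it had 0 UMIs in 270 control cells, which allows a share of up to 0.0109% of the pair with Rpl10 when 0 is read as up to 3 UMIs (exact binomial 95% limit 0.0134%), and 10 UMIs in 9 of 278 Yap1 cKO cells. Median depth was 85039.5 and 103396 UMIs per cell in extraembryonic ectoderm and 73986 and 85879 in the epiblast. Rps27rt was past the fold in nascent mesoderm and extraembryonic ectoderm, where it was lower in the Yap1 cKO library, at 104 and 112 UMIs and at 384 and 227 UMIs.

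Genes that work with the ribosome were examined in lists chosen by function. Of 20 further genes with a TOP mRNA, 15 fell and 2 rose in visceral endoderm, where 35.1% of all genes fell and 36.2% rose, with a median log2 difference of −0.28. Hnrnpa1, an mRNA-binding protein, fell by 1.17, from 1535 to 637 CPM in control cells and from 1412 to 564 in Yap1 cKO cells. Npm1, a nucleolar chaperone, fell by 0.77, Rack1, a scaffold on the small subunit, by 0.62, and the elongation factor gene Eef1a1 by 0.39. Eef2 and Eif2s3x rose, by 0.27 and 0.44. In extraembryonic ectoderm, 7 of the 20 rose and 3 fell, where 32.2% of all genes rose and 29.4% fell, and in nascent mesoderm none passed with edgeR, at a median of 0.01. Between the libraries in the epiblast, 1 of the 20 was lower past the fold and none higher, beside 11.6% and 5.76% of all genes.

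Of 24 ribosome biogenesis genes, 11 fell and 1 rose in visceral endoderm, at a median of −0.19. Of all genes, 35.1% fell and 36.2% rose there. Brix1, Dkc1 and Gar1, which act in assembly of the large subunit or in modification of ribosomal RNA, fell by 0.98, 0.97 and 0.88. Nop10 and Nhp2, partners of Dkc1 in the same complex, were at 0.15 and 0.27, and Nhp2 was the gene that rose. In extraembryonic ectoderm, 8 of the 24 rose and 2 fell, beside the same 32.2% and 29.4% of all genes. Among 10 genes of translation control, 5 rose and 2 fell in visceral endoderm, beside 36.2% and 35.1% of all genes. Their median was 0.28. Eif4ebp1, an inhibitor of cap-dependent initiation, fell by 1.03, and its relative Eif4ebp2 rose by 0.71.

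The 78 genes for the mitochondrial ribosome, a separate machine that shares none of these proteins, served for comparison. In extraembryonic ectoderm 48 rose and 5 fell, beside 32.2% and 29.4% of all genes. The median was 0.27, beside 0.14 for the cytosolic list. In visceral endoderm, where the cytosolic list was lower, 34 rose and 18 fell, beside 36.2% and 35.1% of all genes. The median was 0.10. In nascent mesoderm 4 rose and 9 fell, beside 12.1% and 14.2% of all genes. Between the libraries in the epiblast, 6 were higher and 0 lower past the fold, beside 5.76% and 11.6% of all genes, at a median log2 ratio of 0.12.

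Cells that may carry RNA of other tissues were few. The summed maternal blood and decidua markers were at most 14.2 CPM in every population except node cells of the Yap1 cKO library, at 2034 CPM, from 1 of 27 cells. Trophoblast giant cell genes other than Hand1 were at 373 CPM in control Foxf1 and Hand1 mesoderm, from 2 of 76 cells, and at most 0.412 elsewhere. Without these cells, 40 members were called higher in extraembryonic ectoderm, a fit for which the share of all genes is not given. The members past the fold in the epiblast and in all populations were the same.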

How the data were processed

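Single-cell 3′ RNA-seq libraries (10x) of control and Yap1 cKO embryos were analysed. Per the labels and the methods, the authors made the deposited counts, whole UMIs per gene and barcode without normalization, with Cell Ranger 7.1.0 on mm10; this version counts intronic reads by default, and the authors removed the ribosomal share before clustering, a step that these counts do not hold. The member and marker lists were chosen with earlier results of these data known.

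Barcodes with at least 5000 detected genes were assigned to populations by the summed CPM of marker lists, at gates of 5000 (visceral endoderm), 500 (anterior), 400 (extraembryonic ectoderm), 200 (blood, node), 100 (mesoderm), 50 (streak) and 1000 CPM (epiblast). UMIs were summed per population and library. Levels have exact Poisson, ratios conditional binomial and shares exact binomial 95% intervals; these cover counting error only. Y-bearing cells had at least 2 Y-linked UMIs and no Xist UMI, and Xist-bearing cells at least 2 Xist UMIs and no Y-linked UMI. Other cells were in neither class. No doublet was removed; scrublet marked 4 and 19 cells. Lineages were tested with edgeR 4.0.16 (quasi-likelihood, TMM, at least 200 UMIs), with 8 residual degrees of freedom. On simulated counts for visceral endoderm against epiblast over 12714 genes, 88.5% to 90.4% of 200 genes changed by 2-fold were recovered. No other gene was set to differ between populations. Most member differences were below 2-fold, and recovery at their size was not simulated. Coding lengths are from GENCODE, promoters from RefSeq (GRCm38.p6). Of 1829 and 1897 barcodes, 2 were shared, none among the cells used.

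Genes were named by rule: the 5 highest and 5 lowest members, those past 1.2-fold in all populations, up to 5 per direction and lineage contrast called and past 1.2-fold in both libraries, paralog pairs, X-linked members, and 7 members with known other roles. Rps26, Rps28, Rps29 and the other lower members, the start regions shown and the genes named from the related lists were chosen after their values were seen. Alternatives covered the gene cut-off, sex classes, doublets, scaling, fold, filters, DESeq2 1.42.0, the library term, and, added after seeing the data, stricter gates and the removal of stray cells and of visceral endoderm markers.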

Additional observations from a re-analysis of the deposited data

Results flagged for a closer look

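For 11 members, the counting interval of the ratio of Yap1 cKO to control was above 1 in one population and below 1 in another, with more than 1.2-fold between populations. That is 13.3% of the 83 members, beside 20.8% of the 8247 genes with at least 20 UMIs in each population and 32% of the 369 genes with at least 1000 UMIs in each. With 1 library per genotype, none of these differences between populations was tested. The fold between the ratio in Foxf1 and Hand1 mesoderm and that in visceral endoderm was 1.37 for Rpl3 (2909 and 3328 CPM against 1902 and 1585), 1.26 for Rps3a1, 1.22 for Rpl5 and 1.21 for Rps3. Against anterior visceral endoderm, the ratio in Foxf1 and Hand1 mesoderm was 1.27 times as high for Rpl7a, 1.23 times for Rpl18 and 1.22 times for Rpl10. Rpl41 and Rpl24 ran the other way, with ratios 1.25 and 1.24 times as high in visceral endoderm as in Foxf1 and Hand1 mesoderm. The ratio in primitive streak was 1.22 times that in visceral endoderm for Rps7 and 1.21 times that in anterior visceral endoderm for Rps14. Foxf1 and Hand1 mesoderm held 76 and 64 cells, of which 49 and 15 were Y-bearing, and visceral endoderm 77 and 201 cells, of which 25 and 12 were; the part of the sex of the cells in these folds was not tested.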

How the results depend on the processing

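Shares of UMIs moved by more than counting error, at most from 17.8% to 16.5%, and those of visceral endoderm stayed below those of the other tissues. For the epiblast, extraembryonic ectoderm and visceral endoderm in turn, they were 23.4%, 23.7% and 18.2% in the control and 23.2%, 24.0% and 17.9% in the Yap1 cKO library at a cut-off of 2000 genes. Y-bearing cells gave 23.1%, 23.6% and 19.02%, and 24.4%, 23.8% and 16.5%. Xist-bearing cells gave 23.6%, 23.9% and 17.3%, and 22.8%, 24.1% and 17.7%. Without doublets, the share was 17.97% in control visceral endoderm and 23.2%, 24.0% and 17.7% in the Yap1 cKO library. Stricter gates gave 23.2% in control epiblast and 23.1%, 23.8% and 17.8% in the Yap1 cKO library. Without the marker genes, visceral endoderm was at 18.6% and 18.3%. The sign of the difference between the libraries turned with sex in epiblast and visceral endoderm.

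The count of members higher in Yap1 cKO epiblast, 1 as reported, was 0 at 2000 genes, in Xist-bearing cells, with stricter gates, over single-cell means and at a fold of 1.5, 2 when scaled to the median of all genes, and 9 in Y-bearing cells. Lower members numbered 0 at a fold of 1.5. Members lower in all populations, 2 as reported, were 0 in Xist-bearing cells and at a fold of 1.5, 1 (Rps27) with stricter gates, and 3 (Rpl38, Rps21 and Rps27) over single-cell means. At 2000 genes they were Rpl38 and Rps27. Of these alternatives, only the sex classes in the epiblast have a share of all genes, given with their counts above. The other counts have no share beside them.

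In extraembryonic ectoderm, 41 members were higher as reported, 25 with DESeq2 size factors, 22 without the library term and 27 with stricter gates; 1 was lower without a filter, where 4 were higher in visceral endoderm. In nascent mesoderm, lower calls numbered 3 with DESeq2's Wald test, 2 over populations of at least 40 cells and 1 with stricter gates. For none of these alternatives is the share of all genes given, so the counts cannot be set against one. Median log2 differences moved to 0.10 in extraembryonic ectoderm with stricter gates. In visceral endoderm the median was −0.23 with ribosomal and mitochondrial genes outside the scaling, −0.27 at 2000 genes and −0.26 with stricter gates, and in nascent mesoderm −0.017 at 2000 genes. With 1 library left out, it was 0.13 to 0.15, −0.26 to −0.25 and −0.07 to −0.04 in the 3 contrasts. No median changed sign. Shares within paralog pairs moved by at most 3.69 percentage points. The cause of these moves was not tested. No paired analysis was possible because each genotype has 1 library and the replicate number pairs no further sample; the fit with library as covariate is the one reported. Counting error does not limit these high counts, but 2 libraries do.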
